A study of Mus musculus with 4 samples.

Results

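The nuclear genes of the mitochondrial respiratory chain were compared between otocysts, the epithelial vesicles that form the inner ear, of mutant and control mouse embryos. The genes were taken by name, as every gene on the array whose name begins with Nduf, Sdh followed by a letter from a to d, Uqcr, Cox followed by a digit from 4 to 8, or Atp5, the stems that stand for complexes I to V in that order. This gave 92 genes of 31870 named targets on the array: 42 for complex I, 6 for complex II, 8 for complex III, 19 for complex IV and 17 for complex V. For 88 of them at least 1 probe passed the filter on dim spots and was tested, and in each of these 88 the probe used stood well above background in every channel of the 4 arrays.

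The mutants, called Tbx2/3cDKO, carried Pax2-cre together with Tbx2(fl/fl) and Tbx3(fl/fl), so that Cre recombinase under Pax2 control deletes the floxed alleles of Tbx2 and Tbx3, both genes of T-box transcription factors. The controls were Tbx2(fl/?);Tbx3(fl/?), with no Cre named and with the second allele of each gene unspecified. All embryos were of the NMRI strain and were taken at E10.5, and both RNAs of an array came from the same sex, with females in replicates 1 and 2 and males in the other two. Each of 4 Agilent arrays carried 1 mutant and 1 control RNA. The dyes were swapped between arrays: replicates 1 and 3 had the mutant in red (AlexaFluor647), replicates 2 and 4 in green (AlexaFluor555). Pax2-driven Cre acts in the otic epithelium, so other cells dissected with the vesicle need not have lost either gene. The labels do not say whether an RNA came from 1 embryo or from a pool, and p-values speak only for the spread among these 4 arrays.

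The respiratory chain lies in the inner mitochondrial membrane. Complex I takes electrons from NADH and complex II from succinate, ubiquinone carries them to complex III, cytochrome c carries them on to complex IV, which passes them to oxygen, and complex V uses the proton gradient that results to make ATP. Most subunits are encoded in the nucleus and are made in all cells, some subunits of complex IV exist as isoforms used in particular tissues, and assembly factors help to build a complex without being part of it. The transcription factors Nrf1, Gabpa and Yy1 are known to bind the promoters of many of these genes, with Ppargc1a as a coactivator.

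Short sequence motifs that the choice by name did not use were more frequent in the promoters of these genes than in all promoters. Windows of 300 bases around the start sites of 76 of the 92 genes, 82 windows in all, were available from RefSeq (GRCm38.p6), and 3 exact motifs were searched on both strands: GCATGCGC for Nrf1, CCGGAAG for Gabpa, which other Ets factors also bind, and AAGATGGC for Yy1. Of the 82 windows, 11 (13.4%) held the Nrf1 motif, against 2.71% of all 32851 windows. The Gabpa motif was found in 19 (23.2%) against 8.86%, and the Yy1 motif in 12 (14.6%) against 2.75%. At least 1 of the 3 was present in 36 of the 82 windows (43.9%), against 13.3% of all windows. All windows were not matched to those of the chain genes for base composition or expression level. These shares describe letters and not binding, and a window without a match says nothing about the factor. The lines that follow give the 150 bases before the start site, 5′ to 3′, with each motif on either strand in capitals, first for the 4 genes whose level changed in the mutant and whose promoter was available, then for 1 subunit of each complex, from I to V, chosen because a motif lies in this stretch.
Ndufaf1 (chr2:119662835-119662984, minus strand): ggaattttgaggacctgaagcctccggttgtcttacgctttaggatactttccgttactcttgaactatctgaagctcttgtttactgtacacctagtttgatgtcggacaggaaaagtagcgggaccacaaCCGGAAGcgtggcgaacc
Ndufv3 (chr17:31519965-31520114, plus strand): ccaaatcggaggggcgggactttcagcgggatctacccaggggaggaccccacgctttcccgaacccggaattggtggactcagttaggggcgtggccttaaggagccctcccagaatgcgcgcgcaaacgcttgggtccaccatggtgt
Sdhaf1 (chr7:30322376-30322525, minus strand): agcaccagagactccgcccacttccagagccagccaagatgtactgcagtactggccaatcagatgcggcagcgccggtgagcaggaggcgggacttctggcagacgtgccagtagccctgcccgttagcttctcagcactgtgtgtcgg
Cox7a1 (chr7:30184021-30184170, plus strand): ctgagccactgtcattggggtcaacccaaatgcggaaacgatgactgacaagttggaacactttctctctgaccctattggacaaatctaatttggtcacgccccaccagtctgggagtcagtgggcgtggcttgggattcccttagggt
Ndufa11 (chr17:56717612-56717761, plus strand): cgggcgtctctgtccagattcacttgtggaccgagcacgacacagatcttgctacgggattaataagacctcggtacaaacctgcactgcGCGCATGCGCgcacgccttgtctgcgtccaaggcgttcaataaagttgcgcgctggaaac
Sdhb (chr4:140961121-140961270, plus strand): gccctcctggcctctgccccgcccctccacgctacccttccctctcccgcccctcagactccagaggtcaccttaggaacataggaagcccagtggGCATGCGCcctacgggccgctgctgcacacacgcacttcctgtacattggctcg
Uqcrh (chr4:116075071-116075220, minus strand): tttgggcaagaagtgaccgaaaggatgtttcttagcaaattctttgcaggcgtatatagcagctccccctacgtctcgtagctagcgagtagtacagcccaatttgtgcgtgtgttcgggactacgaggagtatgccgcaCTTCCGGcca
Cox6a1 (chr5:115348959-115349108, minus strand): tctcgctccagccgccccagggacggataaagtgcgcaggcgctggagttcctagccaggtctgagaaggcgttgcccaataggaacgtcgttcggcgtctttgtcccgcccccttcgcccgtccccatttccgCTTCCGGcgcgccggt
Atp5j (chr16:84834977-84835126, minus strand): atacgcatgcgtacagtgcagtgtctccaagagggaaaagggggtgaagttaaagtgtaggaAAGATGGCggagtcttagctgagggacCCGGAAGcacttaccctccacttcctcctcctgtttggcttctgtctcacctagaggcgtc
Ndufaf1 carried a Gabpa motif close to its start, and the upstream stretches of Ndufv3, Sdhaf1 and Cox7a1 held none of the motifs, although the wider 300-base window of Sdhaf1 held a Gabpa motif. Ndufa11 and Sdhb carried an Nrf1 motif, Uqcrh and Cox6a1 a Gabpa motif, and Atp5j a Yy1 and a Gabpa motif.

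The respiratory chain as a whole differed little between the genotypes. Of the 88 genes tested, 2 were higher in the mutant, Ndufaf1 and Ndufa4l2, 4 were lower, Ndufv3, Cox7a1, Cox4i2 and Sdhaf1, and 82 did not pass the test (limma, adjusted p under 0.05 over all genes). Of the 18481 genes tested in all, 13.5% were called higher and 10.1% lower, so that 6.82% of the chain genes were called in either direction beside 23.6% of all genes. At an unadjusted p under 0.05 the numbers were 12 of 88 and 6535 of 18481. Without replicate 1 only Ndufv3 was still called lower, and without replicate 3 only Ndufaf1 was still called higher, beside Ndufv3 and Cox4i2 lower. The median log2 ratio of mutant over control was -0.0064 over the chain genes and 0.0036 over all genes, with SDs across genes of 0.11 and 0.29. A p above the threshold does not show that a gene did not differ, so the intervals of the differences are given as well.

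The 73 subunits that most tissues use stayed within a narrow range. Of these, 67 (91.8%) had a log2 ratio within 0.1 of 0, compared with 52.4% of all genes. The 95% confidence interval lay wholly within 0.32 of 0 on the log2 scale for 72 of the 73 subunits, against 70.9% of all genes. The exception was Ndufv3. These intervals come from a fit with a term for the dye orientation, so a difference between the orientations does not widen them. The chain subunits are among the brighter probes, with a median log2 level of 15.1, and bright probes varied less: of the 2290 genes at a mean log2 level of 14 or more, a limit chosen after the values were seen, 5.55% were higher and 7.77% lower, 70.4% lay within 0.1 and 86.0% had such an interval. Among the 69 chain genes at that level, 0 were higher, 1 was lower, 62 (89.9%) lay within 0.1 and 68 (98.6%) had such an interval. The 15 tested assembly factors, tissue isoforms and other genes held the remaining 5 calls, 2 higher and 3 lower, and their log2 ratios had an SD of 0.23 across genes.

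**Figure D1:**
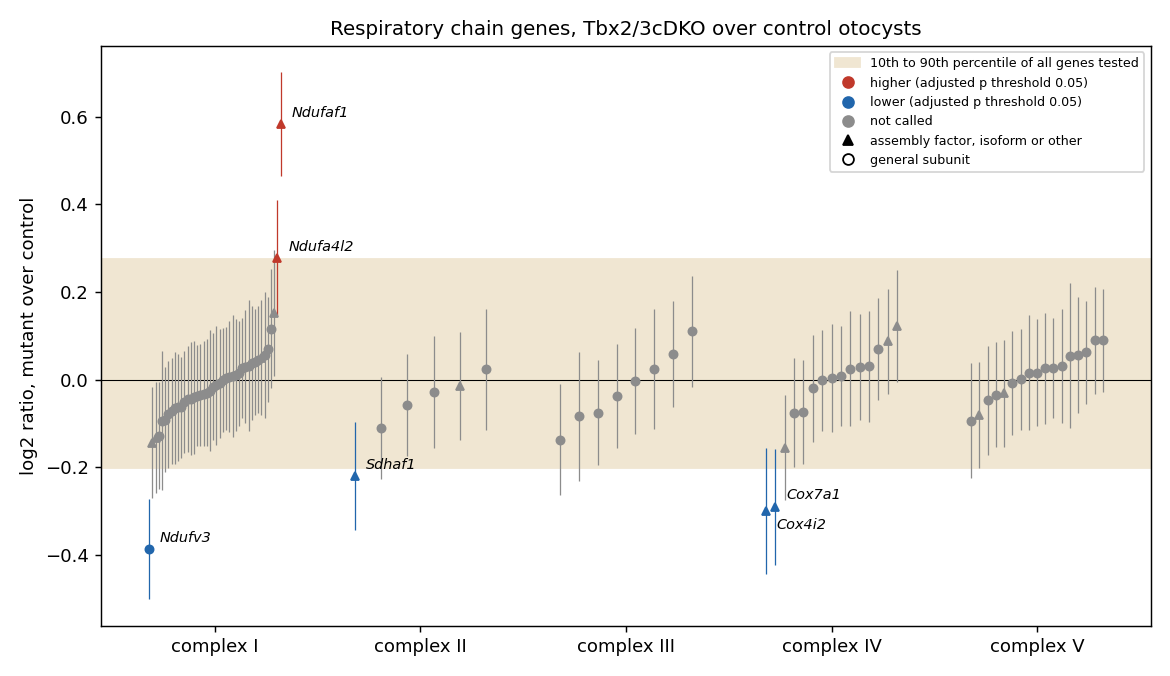
Log2 ratio of mutant over control (vertical axis) for the 88 chain genes tested, ordered by value within complexes I to V; bars are 95% confidence intervals from the limma fit to 4 arrays, circles are general subunits, triangles are assembly factors, isoforms and other genes, and the shaded band spans the 10th to the 90th percentile of all genes tested (-0.20 to 0.28). Most points lie close to 0, and the 6 called genes run from Ndufv3 at -0.39 to Ndufaf1 at 0.58.

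**Figure D2:**
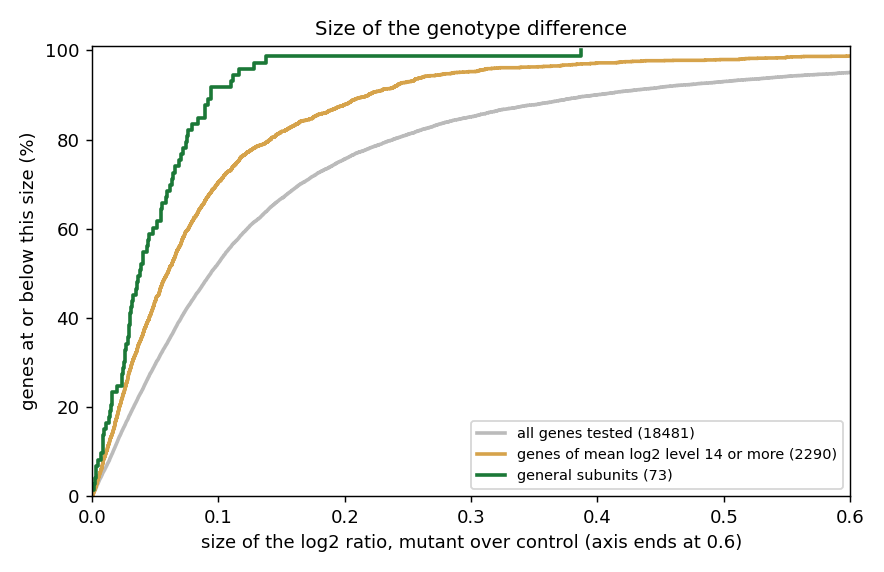
Share of genes (vertical axis, %) whose log2 ratio is at or below the size on the horizontal axis, regardless of sign, for all genes tested, for genes of mean log2 level 14 or more and for the 73 general subunits. At a size of 0.1 the curves stand at 52.4%, 70.4% and 91.8%.

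Ratios of the chain genes followed the dye orientation before the dye term was fitted. The median log2 ratio over the 73 general subunits was -0.07 on replicate 1 and -0.13 on replicate 3, where the mutant RNA was red, and 0.04 on replicate 2 and 0.12 on replicate 4, where it was green. For 54 of the 73 subunits both red-mutant arrays lay below both green-mutant arrays, which held for 21.0% of all genes and 38.2% of the genes at a level of 14 or more. The medians over genes of that level stayed between -0.014 and 0.017 on the 4 arrays. Over the 88 chain genes the ratios of arrays of the same dye orientation correlated at 0.74 and 0.78 and those of opposite orientation at 0.42 to 0.58, as a description over genes that share these arrays. The fit with a dye term averages the orientations equally, and the SDs over arrays given for single genes include the difference between orientations. Whether the difference between orientations came from the dyes or from other differences between the RNA pairs was not tested. In the second case the SEs and intervals would be too narrow.

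**Figure D3:**
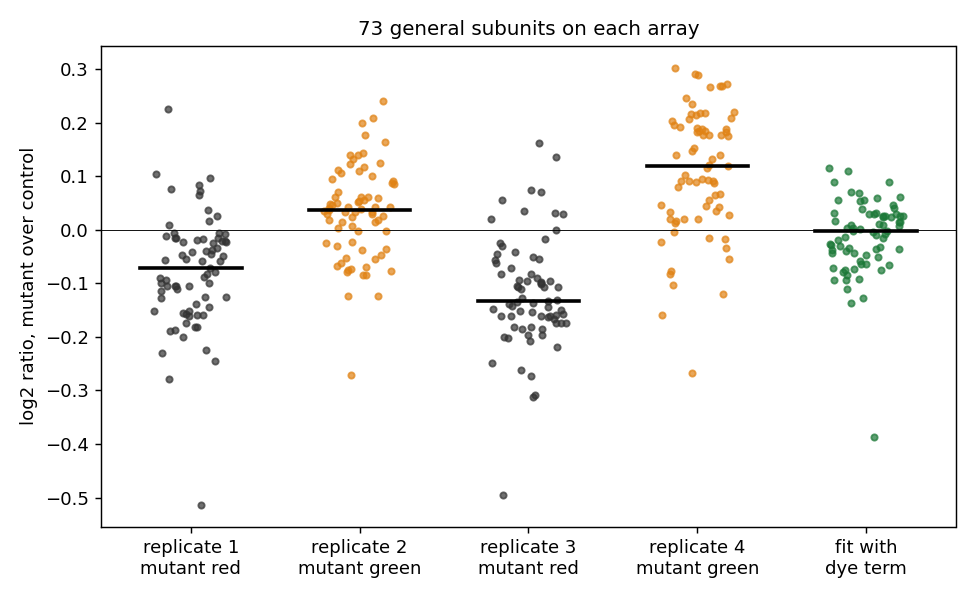
Log2 ratio of mutant over control (vertical axis) of the 73 general subunits on each of the 4 arrays and in the fit with a dye term; each point is a gene and each black bar the median. The medians are -0.07, 0.04, -0.13 and 0.12 on replicates 1 to 4, and the point far below the others in every column is Ndufv3.

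Complex I, the NADH dehydrogenase, had 42 genes, all tested, of which 2 were higher and 1 was lower. The 7 core subunits, which carry out electron transfer, gave no call (limma; 0 at an unadjusted p under 0.05), and their log2 ratios ran from -0.06 for Ndufs7 to 0.05 for Ndufs3 with a median of -0.013. The flavoprotein subunits Ndufv1 and Ndufv2, which with Ndufs1 form the part that oxidises NADH, had log2 ratios of -0.0017 (SE 0.050) and -0.04 (SE 0.048), and Ndufs1 had 0.03 (SE 0.063). The 29 accessory subunits had a median of -0.03, and 26 of them lay within 0.1 of 0. Apart from Ndufv3 they ran from -0.13 for Ndufab1, the mitochondrial acyl carrier protein, to 0.12 for Ndufb10, and neither of these passed the test (adjusted p 0.124 and 0.202, limma).

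Ndufv3, an accessory subunit that sits beside Ndufv1 and Ndufv2, was the only general subunit called in any complex in the main fit. Uqcrq of complex III was called only under other settings, given below. The log2 ratios of Ndufv3 were -0.51, -0.27, -0.50 and -0.27 on replicates 1 to 4. Ndufv3 was lower in the mutant on every array, and the mutant and control levels did not overlap (14.4 ± 0.095 and 14.8 ± 0.11, log2 level, SD, n = 4). The fitted log2 ratio was -0.39 (SE 0.048; 95% interval -0.50 to -0.27; adjusted p 0.00164, limma), or 1.31-fold lower. The probe lies at chr17:31668209-31668268 (mm9). A second, dimmer Ndufv3 probe at chr17:31665148-31665207 gave -0.44, -0.36, -0.49 and -0.37, with a fitted log2 ratio of -0.41 (SE 0.050), so that both probes of the gene showed the lower level.

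Of the 4 complex I assembly factors on the array, Ndufaf1 was higher and 3 gave no call. Ndufaf1 belongs to the membrane assembly module that also holds Ecsit, Acad9 and Tmem126b. Its log2 ratios were 0.55, 0.55, 0.59 and 0.64, the most even values of the 6 called genes (SD 0.041, n = 4). The mutant level was 11.5 ± 0.092 and the control level 10.9 ± 0.087, and the groups did not overlap. The fitted log2 ratio was 0.58 (SE 0.049; 95% interval 0.46 to 0.70; adjusted p 0.000354, limma), and the probe lies at chr2:119481208-119481267 (mm9). Acad9 also rose, by a log2 ratio of 0.26 (SE 0.063, adjusted p 0.0268, limma). That call was lost in 6 of 13 alternatives (adjusted p up to 0.152), among them those without replicate 1, 3 or 4. Ecsit had -0.18 (SE 0.060, adjusted p 0.0853) and Tmem126b -0.05 (SE 0.054, adjusted p 0.551), and neither was called. A shared direction of the module was thus not seen, and none of these genes was called lower. Ndufaf2 had 0.05 (SE 0.055), and Ndufaf3 and Ndufaf4 had -0.13 and -0.14 (SE 0.053 for both), with adjusted p of 0.127 and 0.101.

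Ndufa4 and its relative Ndufa4l2 bear complex I names, but Ndufa4 protein is found with complex IV, and Ndufa4l2 is known as a gene induced by low oxygen and as a marker of pericytes. Ndufa4l2 gave log2 ratios of 0.15, 0.34, 0.34 and 0.28 and was higher in the mutant on every array. Its mutant level of 8.06 ± 0.095 stood above its control level of 7.78 ± 0.063 without overlap, and the fit gave 0.28 (SE 0.055; adjusted p 0.0123, limma), or 1.21-fold; without replicate 3 it was not called (adjusted p 0.0968). Its probe was the dimmest of the chain genes tested, and with the scanner software's log ratio the value was 0.39. Ndufa4 gave 0.11, 0.11, 0.02 and 0.36, all above 0 but unequal, with a fitted value of 0.15 (SE 0.060; adjusted p 0.123), and was called only without replicate 2 (0.22; adjusted p 0.0478). The Ndufa4l2 probe lies at chr10:126954149-126954208 (mm9).

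Markers of other cell types moved with genotype in these bulk samples, where fewer cells of a type and less RNA per cell cannot be told apart. Of 12 markers of endothelium and pericytes, 11 were tested, of which 9 were higher and 1 was lower, and their mean log2 level was 9.85 to 9.99 in controls and 10.3 to 10.4 in mutants. Within that list the pericyte markers did not share a direction: Pdgfrb was at 0.62 and Rgs5 at -0.83, Cspg4 was at 0.07 (adjusted p 0.563), and Kcnj8 was not well above background on enough arrays to be tested. Of 10 genes of hypoxia and glycolysis, 9 were tested, of which Vegfa was higher (0.55) and Ldha, Bnip3, Pgk1, Higd1a and Ankrd37 were lower (-0.55 to -0.22), with mean levels of 12.89 to 12.96 in controls and 12.71 to 12.85 in mutants. The part of either list in the Ndufa4l2 result was not tested.

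Complex II, succinate dehydrogenase, had 4 subunits and 2 assembly factors. The subunits gave no call (0 at an unadjusted p under 0.05): the flavoprotein Sdha had a log2 ratio of -0.03 (SE 0.053), the iron-sulphur subunit Sdhb 0.02 (SE 0.058), and the membrane anchors Sdhc and Sdhd -0.06 (SE 0.049) and -0.11 (SE 0.049; adjusted p 0.156, limma). Sdhaf1, a factor that helps to insert iron-sulphur clusters into Sdhb, was lower, with log2 ratios of -0.20, -0.24, -0.30 and -0.14. Its levels were 13.1 ± 0.021 in mutants and 13.3 ± 0.053 in controls and did not overlap. The fit gave -0.22 (SE 0.052; adjusted p 0.0231), 1.17-fold lower, for a probe at chr7:31106594-31106653 (mm9). This is the least stable of the 6 calls: it was lost with median centring in place of loess (adjusted p 0.0853) and without replicate 1, 2 or 3 (0.0769, 0.0697 and 0.157). The other factor, Sdhaf2, which helps to attach the flavin of Sdha, had -0.015 (SE 0.052).

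Complex III, the cytochrome bc1 complex, had 8 tested genes and no call (limma; 1, Uqcrq, at an unadjusted p under 0.05). The core subunits Uqcrc1 and Uqcrc2 had log2 ratios of -0.08 and 0.06, and the Rieske iron-sulphur protein Uqcrfs1 had -0.04, each with an SE of 0.050. The 5 small subunits ran from -0.14 for Uqcrq to 0.11 for Uqcrh. Uqcrq is the member of this complex on which the probes did not give the same call. Its brighter probe, at chr11:53242451-53242510 (mm9), gave -0.17, -0.08, -0.31 and 0.01, with a fitted value of -0.14 (SE 0.053; adjusted p 0.116, limma). Its dimmer probe, at chr11:53242551-53242610, gave -0.41, -0.35, -0.42 and -0.30, with a fitted value of -0.37 (SE 0.050; adjusted p 0.00221 over all probes). The dimmer probe was thus lower on every array and the brighter one on 3 of 4, and the mean of both probes was called (-0.25; adjusted p 0.00984), as was the brighter probe under a trended, robust prior (adjusted p 0.0461).

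Over the whole chain, 24 tested genes had more than 1 kept probe, and 0 of them had probes called in opposite directions. Only Ndufv3 had more than 1 probe called, so this says little about the other genes. The probes of the 24 genes differed in log2 ratio by a median of 0.05, 20 of the 24 agreed within 0.1, and Uqcrq showed the widest gap at 0.23. Some probes of a gene overlap in position, among them those of Uqcrh, so their agreement is not independent. Many of these genes have processed pseudogenes whose transcripts a probe could also bind, which was not tested.

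Complex IV, cytochrome c oxidase, is the complex with tissue isoforms, and both of its calls were isoforms. The 10 subunits of most tissues gave no call (limma; 0 at an unadjusted p under 0.05) and ran from -0.08 for Cox5a to 0.07 for Cox5b, with a median of 0.0056, and all 10 intervals lay within 0.32 of 0. Of the 8 tissue isoforms and relatives, 4 were tested: Cox4i2 and Cox7a1 were lower, and Cox6b2 and Cox7a2l gave no call. Cox6a2 and Cox8b, the heart and muscle isoforms, and Cox7b2 and Cox8c were not well above background in either genotype on any array.

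Cox4i2 is the oxygen-responsive isoform of subunit 4, known from lung and from vascular mural cells, and Cox4i1 is the general one. Cox4i2 gave log2 ratios of -0.37, -0.42, -0.21 and -0.20, lower in the mutant on every array. Its level was 8.41 ± 0.044 in mutants and 8.71 ± 0.11 in controls, without overlap. The fit gave -0.30 (SE 0.060, adjusted p 0.0124, limma), 1.23-fold lower, for a probe at chr2:152590711-152590770 (mm9). Without replicate 1 the call was lost (adjusted p 0.0843), and with the scanner software's log ratio the value was -0.39. Cox4i1 gave -0.03, 0.16, -0.15 and 0.14, negative on the red-mutant arrays and positive on the green-mutant ones, and a fitted 0.03 (SE 0.051, 95% interval -0.09 to 0.15). Ndufa4l2 and Cox4i2, both genes known to respond to oxygen, therefore differed in opposite directions here. The part in the Cox4i2 result of the endothelial and pericyte markers, and of the hypoxia genes, was not tested.

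Cox7a1 is the heart and muscle isoform of subunit 7a, and Cox7a2 is the general one. Cox7a1 gave -0.39, -0.29, -0.40 and -0.09, so that replicate 4 stood closer to 0 than the other three. Its level was 9.18 ± 0.053 in mutants and 9.47 ± 0.16 in controls; the control of replicate 4 fell among the mutant values, so the groups overlapped. The fit gave -0.29 (SE 0.055, adjusted p 0.0103, limma), 1.22-fold lower, a call lost without replicate 1 (adjusted p 0.0594) or 3 (0.0659). With the scanner software's log ratio the value was -0.37. The file places its probe at chr7:30970337-30970948 (mm9), a span longer than the probe. Cox7a2 gave a fitted 0.03 (SE 0.053) and the relative Cox7a2l, which takes part in joining complexes III and IV, 0.12 (SE 0.053; adjusted p 0.157). Of 9 striated muscle markers 7 were tested, and they did not share a direction: Actc1 (1.66) and Myl1 (2.06) were higher, Tnni1 (-2.08) and Tnnt2 (-0.28) were lower, with 4 higher without replicate 2 and 1 lower without replicate 3, and their mean level was at most 8.11 in controls and 8.15 to 8.44 in mutants. Their part in the Cox7a1 result was not tested.

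For the other isoform pairs of complex IV, Cox6a1 had a log2 ratio of -0.0019 (SE 0.048) with its partner Cox6a2 not measurable. Cox6b1 had -0.02 (SE 0.051) and its testis isoform Cox6b2 0.09 (SE 0.050; adjusted p 0.27). Cox7b had 0.02 (SE 0.055) and Cox8a -0.07 (SE 0.049), with Cox7b2, Cox8b and Cox8c not well above background. Cox4nb takes its file name from its position next to Cox4i1 and is now called Emc8, so it is no subunit of the chain. It had a log2 ratio of -0.16 (SE 0.050; adjusted p 0.0697).

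**Figure D4:**
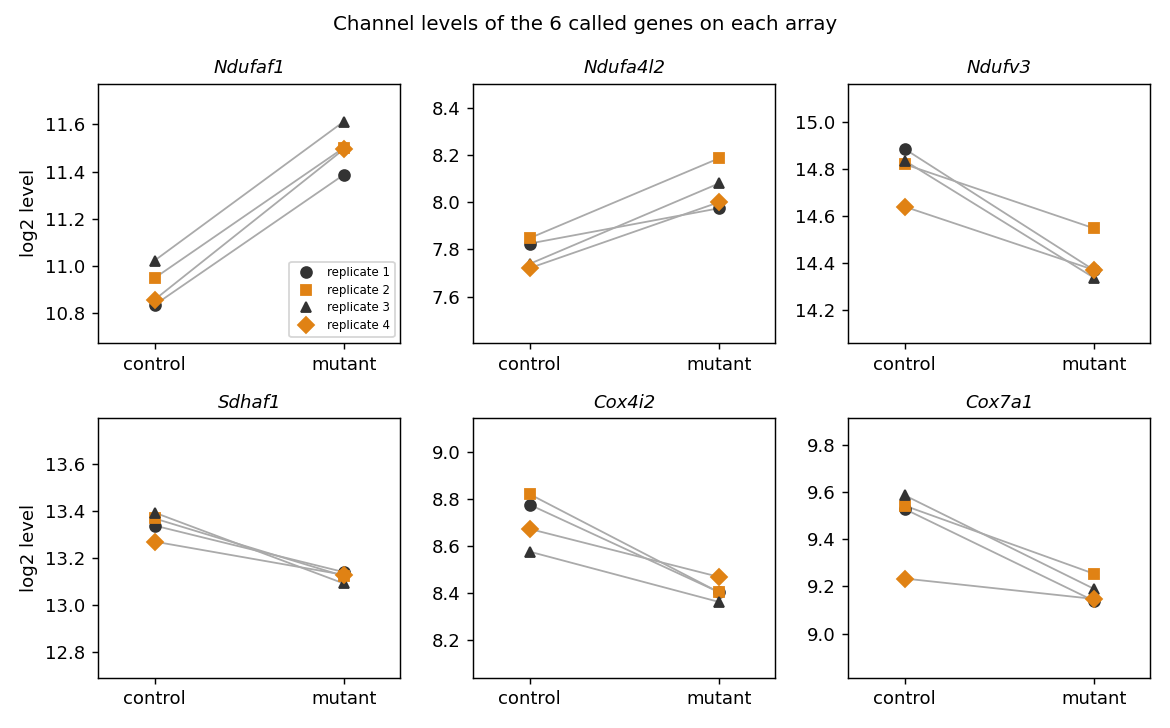
Log2 level (vertical axis) in the control and the mutant channel of each array for the 6 called genes; lines join the channels of 1 array, dark symbols are arrays with the mutant in red and orange symbols arrays with the mutant in green, and every panel spans the same range of 1.1. Each line rises for Ndufaf1 and Ndufa4l2 and falls for the other genes, with the control of replicate 4 low for Cox7a1.

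Complex V, the ATP synthase, had 17 tested genes and no call (limma; 0 at an unadjusted p under 0.05), with log2 ratios from -0.09 for Atp5d to 0.09 for Atp5h. All 17 lay within 0.1 of 0, and all 17 intervals lay within 0.32 of 0. In the catalytic head, Atp5a1 (alpha) gave 0.08, 0.06, 0.03 and 0.18 with a fitted 0.09 (SE 0.051; adjusted p 0.271, limma), and Atp5b (beta) gave 0.23, -0.08, 0.16 and -0.06 with a fitted 0.06 (SE 0.049). The dye pattern of Atp5b ran opposite to that of most subunits, high where the mutant was red. The central stalk genes Atp5c1, Atp5d and Atp5e had 0.02, -0.09 and -0.0086. The 3 genes of the membrane ring subunit c, Atp5g1, Atp5g2 and Atp5g3, which encode the same mature protein, had 0.00045, 0.03 and 0.03. The other 7 genes of the membrane part and peripheral stalk ran from -0.05 for Atp5f1, now called Atp5pb, to 0.09 for Atp5h. Atp5s and Atp5sl, now Dmac2l and Dmac2, had -0.03 and -0.08. They were counted among the 17 by name and were not classed as subunits of the ATP synthase.

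The median log2 ratio by complex was -0.015 for I, -0.04 for II, -0.02 for III, 0.0028 for IV and 0.016 for V. The sign of the medians of III, IV and V changed under other settings, between -0.05 and 0.03, and no order of the complexes is drawn from them.

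Other genes of mitochondrial energy metabolism were read as lists, to be set beside the 13.5% higher and 10.1% lower among all genes. Of 8 electron carriers and other subunits, 0 were higher and 1 was lower, Etfa (-0.18; adjusted p 0.0402), a subunit of the electron transfer flavoprotein, which kept its call in only 4 of 13 alternatives and lost it whichever of the 4 replicates was left out (adjusted p up to 0.231), and the cytochromes Cycs and Cyc1 had -0.02 and -0.04. Of 29 tested assembly factors outside the name stems, 3 were higher and 0 lower: Atpaf2 (0.37), a factor for the head of complex V, Tmem70 (0.24), a factor for its ring, and Acad9. The median of the list was -0.07. Atpaf2 was called in all 13 alternatives, Tmem70 in 10 and Acad9 in 7; the number higher fell to 1 under median centring, without replicate 1 and without replicate 3, and was 4 without replicate 2. Of 8 genes of ubiquinone synthesis, 1 was lower, Pdss2 (-0.26), and of 16 of the citric acid cycle and pyruvate dehydrogenase, 1 was higher, Dlat (0.42), with list medians of -0.11 and -0.03. Dlat was called in all 13 alternatives, whereas Pdss2 was lost without replicate 1, without replicate 3 and with the mean of probes (adjusted p up to 0.0866), and 2 genes of its list were lower without replicate 4 or with no dye term. The 8 chain genes that the array lists under other names gave no call and had a median of -0.06.

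Of 14 tested genes of mitochondrial biogenesis, 1 was higher, the coactivator Ppargc1a, at 0.28, 0.71, 0.27 and 0.65 (fitted 0.48; SE 0.049; adjusted p 0.000734, limma), with the higher values on the arrays with the mutant in green. The factors whose motifs were searched above gave no call: Nrf1 had -0.01 (SE 0.049), Gabpa 0.11 (SE 0.066; adjusted p 0.311) and Yy1 0.18 (SE 0.058; adjusted p 0.0684). The mitochondrial transcription factor Tfam had -0.02 (SE 0.050).

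The mitochondrial ribosome, which translates the chain subunits encoded in the organelle, had 77 tested genes, of which 0 were higher and 10 lower, a share near the 10.1% lower among all genes, with a median of -0.08. Mrpl35 (-0.39), Mrpl9 (-0.22), Mrpl54 (-0.20) and Mrpl39 (-0.22) had the smallest adjusted p. The number lower ran from 1 to 14 over the alternative settings, with 1 under median centring, 1 without replicate 3 and 2 without each of replicates 1, 2 and 4, and Mrpl35 was the only one of the 10 called in all 13; the list median stayed below 0 in all of them (-0.10 to -0.06). For 54 of the 77 (70.1%) the red-mutant arrays lay below the green-mutant arrays, against 21.0% of all genes and 38.2% of the genes at a level of 14 or more.

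Of the 10 mitochondrially encoded chain genes on the array, 4 were higher, COX3 (0.36), ND3 (0.60), ND2 (0.36) and COX1 (0.26), and 0 lower, beside 13.5% higher and 10.1% lower among all genes. Their values differed strongly between arrays: the list's median log2 ratio was 0.46, 0.08, 0.67 and -0.17 on replicates 1 to 4. COX3, for example, gave 0.50, 0.07, 0.87 and 0.02. Here the high arrays were those with the mutant in red, opposite to the nuclear subunits. These are among the brightest probes on the array, ND6 apart, and the number higher ran from 1 (without the dye term, and without replicate 3) to 7 (without replicate 4, and under a trended, robust prior); ND3 was called in all 13 alternatives, COX3 and ND2 in 11 and COX1 in 6. The files place some of these probes on nuclear chromosomes, so which copy they measure is not settled.

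The deleted genes and the make-up of the samples were read as checks. Tbx3 was lower by a log2 ratio of -3.43 (SD 0.16, n = 4; adjusted p 4.11e-06, limma), and Tbx2 had 0.06 (SD 0.23; adjusted p 0.651), on a probe whose position relative to the deleted part the labels do not state. Of 12 markers of otic epithelium 9 were lower and 1 was higher, with Oc90, Hmx2 and Pax8 among those lower, and all 12 were measurable. Mean log2 levels of this list were 12.5 to 12.6 in controls and 11.7 to 11.8 in mutants. Higher calls were made for 11 of 12 erythroid, 4 of 7 macrophage, 7 of 9 mesenchymal and 8 of 10 neuronal markers, with 0 lower in these lists. Their mean levels were 12.1 to 12.5 in controls and 13.2 to 13.5 in mutants for the erythroid list, 8.32 to 8.42 and 8.52 to 8.85 for the macrophage list, 11.3 to 11.4 and 11.9 to 12.0 for the mesenchymal list, and 9.54 to 9.70 and 10.54 to 10.72 for the neuronal list. The part of these lists in the values of the chain genes was not tested. Between 58.4% and 63.2% of spots per channel were well above background.

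The genotype difference was also compared between the sexes. None of the 88 chain genes differed between the female and the male arrays by the interaction term (limma, 0 calls, 1 at an unadjusted p under 0.05, smallest adjusted p 0.315), and 2 of 18481 genes did, with 2881 at an unadjusted p under 0.05; with 2 arrays of each sex, this comparison can show only wide differences.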

How the data were processed

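Total RNA was amplified, labelled and hybridised to 4 two-colour Agilent arrays, per the labels' protocols. Mean spot and median local background intensities were deposited by the authors; the submitters' processing notes name Agilent Feature Extraction 10.7.3.1. The same deposited files hold the scanner software's log10 ratio of red over green and flags for background, non-uniformity and saturation. A deposited series table holds signed fold ratios, 90.8% to 93.3% of which lay within 0.001 of the scanner's log2 ratios; how it was processed further is not stated.

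Signals were corrected with normexp (offset 50) and loess in limma 3.58.1 under R 4.3.3, leaving out control and non-uniform spots (21 to 32 per array). Probes were kept where the background flag was passed by 3 or more of the 4 arrays in 1 genotype (23202 of 39429), and the brightest kept probe per gene was fitted with a genotype and a dye term (lmFit, eBayes; prior degrees of freedom 4.61, residual 2), with Benjamini-Hochberg adjustment over 18481 genes. Levels are log2 channel values after loess and Aquantile. Names came from the files and a RefSeq table (GRCm38.p6): 26412 probes by accession, 3854 by symbol, and 9163 kept the file's name. Probe coordinates are the files' own (mm9). The exon or UTR position of the probes was not analysed here.

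The text names every called chain gene, the extremes of each complex, the isoform pairs and up to 4 called genes per list; other genes were named after their values were seen. The members and lists were chosen with earlier results of these data known. The steps were tested on simulated data (23186 probes): 99 of 100 probes changed 1.5-fold and 100 of 100 changed 2-fold were recovered, and 10 of 209 calls were unchanged probes. Smaller changes, the size of most chain gene calls, were not simulated, so their recovery was not tested. The simulated noise was drawn separately for each probe, with none shared by the genes of an array. Arrays give no read depth; their number limits the precision. Figures were drawn with matplotlib 3.10.9.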

Additional observations from a re-analysis of the deposited data

How the results depend on the processing

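Across 13 alternatives (scanner ratio, median centring, series table, no or a strict filter, no dye term, mean of probes, trended robust prior, non-uniform spots kept, and leaving out each array), Ndufaf1 (0.56 to 0.60) and Ndufv3 (-0.41 to -0.38) were called in all 13, Cox4i2 and Ndufa4l2 in 12, Cox7a1 in 11 and Sdhaf1 in 9. For these genes the settings of filter, dye term, prior and non-uniform spots left the ratio unchanged, and only the adjusted p moved. The scanner ratio and the series table gave the same ratios as each other. Over the alternatives the ratio ran from -0.39 to -0.25 for Cox4i2 and from 0.23 to 0.39 for Ndufa4l2. It ran from -0.37 to -0.24 for Cox7a1 and from -0.25 to -0.19 for Sdhaf1. No chain gene named changed sign while called. With 1 array left out, the number of chain genes higher ran from 1 (without replicate 3) to 3 (without replicate 2) and the number lower from 1 (without replicate 1) to 4 (without replicate 4), with 2 without replicate 3. The calls lost were Cox4i2 (adjusted p 0.0843), Cox7a1 (0.0594) and Sdhaf1 without replicate 1, Sdhaf1 without replicate 2, and Cox7a1 (0.0659), Ndufa4l2 (0.0968) and Sdhaf1 without replicate 3. Ndufa4 was gained as a higher call without replicate 2 (0.22, adjusted p 0.0478, limma). Uqcrq was gained as a lower call with the mean of probes (-0.25, adjusted p 0.00984) and under the trended robust prior (-0.14, adjusted p 0.0461). Over all genes, 1150 were lower without replicate 1, and 1565 were higher and 1034 lower without replicate 3. Without replicate 2 the numbers over all genes were 2498 higher and 1791 lower, and without replicate 4 they were 2415 and 1619. With all arrays they were 2488 and 1872. Each fit with an array left out has fewer residual degrees of freedom, and why the counts differed between these fits was not tested. The median over the chain genes stayed between -0.04 and 0.0067 in all 13. Each ratio compares the mutant and the control RNA of 1 array, so the analysis is paired by array throughout.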
